A study of Sus scrofa with 24 samples.

Results

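The first 2 days of adipogenic induction in subcutaneous preadipocytes of the pig were examined by RNA sequencing. The comparison rested on 6 of the series' 24 libraries, 3 of cells on day 0 (BF-0d) and 3 of cells on day 2 (BF-2d), chosen by their depot and day alone. The cells were primary preadipocytes, fibroblast-like precursors released by collagenase from the subcutaneous back fat (BF) of 6-day-old Yorkshire piglets and grown in serum-containing medium. BF-0d cells were near-confluent cells before induction, and BF-2d cells had spent 2 days in medium with insulin, dexamethasone and 3-isobutyl-1-methylxanthine (IBMX). No group received a vehicle or was kept for 2 days without the inducers, so that the inducers, the change of medium and the time in culture cannot be told apart. Preadipocytes of intramuscular fat (IMF) from the loin muscle, induced in the same way and sampled on the same days with 3 libraries each, served for a comparison between depots. Both depots were sampled from 3 piglets in all, so that BF and IMF cells may share animals, and the labels do not tie libraries to animals. They were released with more collagenase and a longer digestion than the BF cells, so that depot and isolation cannot be told apart.

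Adipogenic induction mixtures act through separate routes. Dexamethasone activates the glucocorticoid receptor, IBMX blocks the phosphodiesterases that degrade cyclic AMP (cAMP), and insulin at high dose also acts through the receptor for insulin-like growth factor 1. In the textbook sequence, these signals raise the transcription factors C/EBPβ and C/EBPδ early, which are followed by C/EBPα and PPARγ and later by the genes of the lipid droplet. Preadipocytes also lose stress fibres and change their surrounding matrix as they round up.

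Values were FPKM, fragments per kilobase of transcript scaled to the mapped fragments of the library, as computed by the authors. Read depth is not in these values, so no counting interval is given. Changes are differences of log2(FPKM + 1), day 2 minus day 0, with their standard error (SE), and they understate the change of genes with low values. Adjusted p-values are those of limma fitted to all 24 libraries and adjusted over 16135 tested genes. A gene was called higher or lower at an adjusted p under 0.01 and an absolute log2 change of at least 1. Genes were named by a rule on size of change within each group, and 35 further genes were chosen after their values were seen. Where values of a gene are listed, they stand in the order of replicates 1 to 3. The labels do not say whether replicates came from separate animals, so the p-values measure only the spread between these samples, which may be technical. That spread was pooled over all 24 libraries, so that SE and p-values do not measure the spread of the listed values alone. The SE of PCK1 was 0.78 in that fit and 1.11 with the 6 libraries alone, and that of RHCG 0.75 and 0.34. In bulk RNA, fewer cells of a type and less RNA per cell cannot be told apart.

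Promoter sequences of 5 genes whose levels moved in these cells are shown for the DNA letters of 2 families of regulatory motif. Each covers the 250 bases before the RefSeq gene start on Sscrofa11.1, written 5′ to 3′ on the strand of the gene. In SIK1, PCK1, AREG and PTGS2, capitals mark TGACG, the core letters of the cAMP response element, on either strand. In MYL9, capitals mark the CArG box, the binding motif of serum response factor in contractile genes.
SIK1, chr13:206465803-206466052, minus strand: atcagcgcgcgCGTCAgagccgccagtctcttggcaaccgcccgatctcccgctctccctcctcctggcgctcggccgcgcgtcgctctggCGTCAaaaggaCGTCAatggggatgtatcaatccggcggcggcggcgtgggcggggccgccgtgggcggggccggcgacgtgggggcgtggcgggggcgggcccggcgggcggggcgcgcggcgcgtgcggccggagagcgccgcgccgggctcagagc
PCK1, chr17:57930257-57930506, plus strand: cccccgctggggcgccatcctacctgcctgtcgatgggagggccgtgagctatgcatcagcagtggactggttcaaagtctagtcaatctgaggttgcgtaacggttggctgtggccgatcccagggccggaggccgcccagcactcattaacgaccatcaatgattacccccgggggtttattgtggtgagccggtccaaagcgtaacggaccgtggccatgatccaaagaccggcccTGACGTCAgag
AREG, chr8:70417685-70417934, plus strand: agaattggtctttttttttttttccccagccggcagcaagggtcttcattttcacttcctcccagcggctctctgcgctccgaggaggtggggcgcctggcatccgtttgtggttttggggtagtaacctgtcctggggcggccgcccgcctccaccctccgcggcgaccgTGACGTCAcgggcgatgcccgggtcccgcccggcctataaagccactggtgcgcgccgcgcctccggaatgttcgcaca
PTGS2, chr9:127858867-127859116, minus strand: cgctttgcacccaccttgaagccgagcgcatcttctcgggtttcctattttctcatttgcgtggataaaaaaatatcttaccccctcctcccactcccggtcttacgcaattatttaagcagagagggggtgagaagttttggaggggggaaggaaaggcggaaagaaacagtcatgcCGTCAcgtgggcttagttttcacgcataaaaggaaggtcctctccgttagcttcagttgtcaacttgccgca
MYL9, chr17:39787915-39788164, plus strand: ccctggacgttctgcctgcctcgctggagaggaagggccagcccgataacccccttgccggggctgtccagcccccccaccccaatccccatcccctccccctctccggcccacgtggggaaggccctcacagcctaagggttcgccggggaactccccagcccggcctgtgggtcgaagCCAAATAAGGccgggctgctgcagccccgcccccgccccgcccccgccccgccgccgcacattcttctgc
The PCK1 and AREG windows each held the whole palindrome TGACGTCA, in which the cores of both strands overlap. Of 19531 promoters of this length, 19.6% held TGACG, 1.7% held TGACGTCA and 1.31% held a CArG box. Among the cAMP-response genes described below, TGACG stood in 8 of 13 promoters of genes called and in 1 of 10 of genes not called. A CArG box stood in 4 of 18 promoters of contractile genes called and in 4 of 9 of those not called. The letters ACGTG, the core of the hypoxia response element, stood in 7 of 14 promoters of glycolytic and hypoxia-inducible genes called and in 4 of 12 of those not called, against 18.7% of all promoters. Both motifs also stood above the share over all promoters in lists other than their own. ACGTG was in 6 of 13 called cAMP-response genes and 7 of 16 glucocorticoid-response genes not called, and TGACG in 5 of 12 glycolytic and hypoxia-inducible genes not called. Below that share was TGACG in glycolytic and hypoxia-inducible genes called, in 1 of 14. No motif was tested for being particular to its list. ACGTG can overlap the cAMP core where TGACG is followed by TG. The TEAD motif GGAATG stood in 0 of 5 called and 3 of 17 other genes of the YAP/TAZ list (10.3% of all promoters), and the glucocorticoid response element, AGAACA and TGTTCT with 3 bases between, in 0 of 7 called and 0 of 16 other glucocorticoid-response genes (1 promoter in all). Genes with no window matched by symbol were left out of these counts, namely 1 of 14 called cAMP-response genes, 1 of 10 contractile genes not called, and 2 of 7 called and 3 of 20 other genes of the YAP/TAZ list. Motifs were searched on both strands, and a match describes the letters in the window only.

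BF-2d replicate 3 stood apart from the other day 2 libraries. Across tested genes, BF-2d replicate 3 correlated with the 3 BF-0d libraries at 0.975 to 0.976 (Pearson's r of log2 values, genes not being independent replicates), with BF-2d replicate 1 at 0.971 and with BF-2d replicate 2 at 0.962. BF-2d replicates 1 and 2 correlated with each other at 0.976 and with the BF-0d libraries at 0.920 to 0.939. The median gene had a standard deviation of 0.218 among the BF-2d libraries and of 0.0934 among the BF-0d libraries on the log2 scale, and BF-2d was the highest of the 8 groups of the series. BF-2d replicate 2 also differed from the other BF libraries compared. Its median ratio size factor was 0.817 against 0.957 to 1.07 in the other 5, and limma's array weights, whose estimation gave a convergence warning, were 0.173 for replicate 2 and 0.22 for replicate 3. Gene groups are given with and without BF-2d replicate 3. The total FPKM of the 6 libraries ranged from 307967 to 385768, and 9985 to 10690 genes per library reached 1 FPKM.

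From day 0 to day 2, 1063 genes were called, 438 higher and 625 lower, which was 6.59% of tested genes (2.71% higher and 3.87% lower). The day 0 and day 2 libraries did not overlap in 1046 of them, against 40.1% of all tested genes. The median log2 change was -0.04 over tested genes, 1.47 over genes called higher and -1.31 over genes called lower. Without BF-2d replicate 3, 1615 genes were called (10.0%), 627 higher (3.89%) and 988 lower (6.12%), and these included 1047 of the 1063. Without BF-2d replicate 2, 698 genes were called. With the spread taken from the 6 libraries alone, 237 genes were called (1.47%, with 0.558% higher and 0.911% lower), 229 of them shared with the 1063, and 5263 genes had an unadjusted p under 0.05 (32.6%). In the fit over 24 libraries an unadjusted p under 0.05 was found in 41.2% of tested genes, which is the background for such counts below. Of the 117 named genes that were called, 39 were also called with the spread of the 6 libraries alone. The 5 libraries left without replicate 3, fitted alone, gave 1306 calls.

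The largest rises were those of PCK1 and IL11 and the largest fall that of CCN2. The largest rises and falls were drawn from genes whose day 0 and day 2 libraries did not overlap. Their separation between the days was thus fixed by the choice. PCK1 (chr17:57930507-57936523), the cytosolic phosphoenolpyruvate carboxykinase that supplies glycerol phosphate in fat cells, was measured at 0.0322, 0.0582 and 0.115 FPKM on day 0 and 611, 461 and 24.5 FPKM on day 2. All day 2 libraries lay above all day 0 libraries, with replicate 3 far below the other two (log2 change 7.50 ± 0.78, adjusted p = 1.08e-06). IL11 (chr6:59540482-59544909), a cytokine of the gp130 family known to inhibit adipogenesis, stood at 1.53, 1.5 and 2.16 FPKM on day 0 and 684, 981 and 48.9 FPKM on day 2 (log2 change 6.89 ± 0.77, adjusted p = 2.27e-06). The cytokine gene again had its lowest day 2 value in replicate 3. CCN2 (chr1:31674398-31677697), the connective tissue growth factor and a target of YAP and TAZ, was measured at 274, 382 and 375 FPKM on day 0 and 3.34, 4.76 and 31.3 FPKM on day 2 (log2 change -5.19 ± 0.51, adjusted p = 4.75e-07). ACTA2 (chr14:100868145-100886732), smooth muscle α-actin, stood at 1550.4, 1609 and 1641 FPKM on day 0 and 61.2, 102 and 588 FPKM on day 2 (log2 change -3.36 ± 0.55, adjusted p = 0.000117). Both genes were lower in every day 2 library than in any day 0 library, and replicate 3 kept more of either transcript than replicates 1 and 2. With the spread of the 6 libraries alone, PCK1 (adjusted p = 0.0113), IL11 (adjusted p = 0.0115) and ACTA2 (adjusted p = 0.0321) missed the threshold of 0.01 in limma, and CCN2 passed it (adjusted p = 0.00875).

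**Figure D1:**
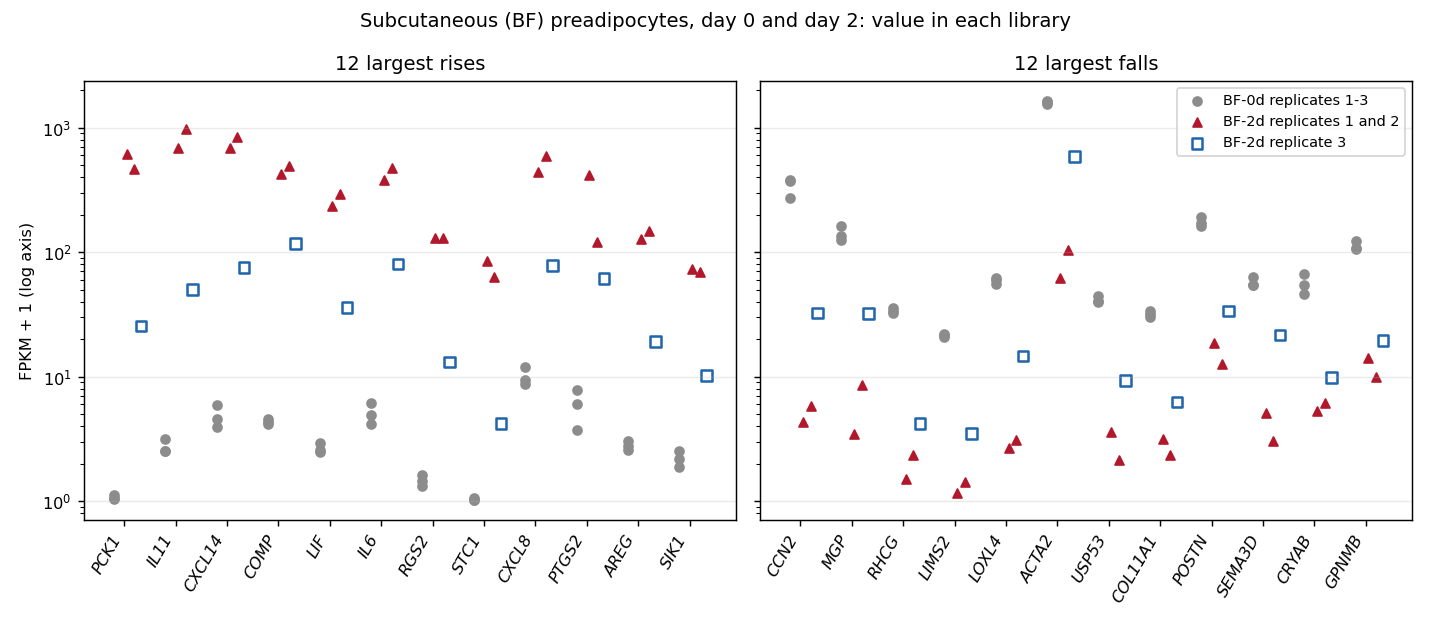
FPKM + 1 on a log axis in each of the 6 libraries for the 12 largest rises (left) and the 12 largest falls (right), with day 0 libraries as grey circles, BF-2d replicates 1 and 2 as red triangles and BF-2d replicate 3 as blue open squares. All 24 genes were chosen to have day 2 libraries outside the day 0 range, so that this separation is not a result. The square of replicate 3 lies between the day 0 circles and the red triangles.

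The other large rises, in falling order of change, were CXCL14, COMP, LIF, IL6, RGS2, STC1, CXCL8, PTGS2, AREG and SIK1, with log2 changes of 6.22 to 4.10. They code for chemokines (CXCL14, CXCL8), gp130 cytokines (LIF, IL6), a matrix protein (COMP), a stanniocalcin (STC1), an EGF-receptor ligand (AREG), the inducible cyclooxygenase (PTGS2) and brakes on cAMP-linked signalling (RGS2, SIK1). The other large falls were MGP, RHCG, LIMS2, LOXL4, USP53, COL11A1, POSTN, SEMA3D, CRYAB and GPNMB, with log2 changes of -3.82 to -3.01. MGP inhibits mineralisation of matrix, LOXL4 cross-links collagen, POSTN is the matricellular protein periostin, LIMS2 is a focal adhesion protein and CRYAB is a small heat shock protein. RHCG, an ammonium transporter, was measured at 31.3, 32.5 and 34.8 FPKM on day 0 and 0.514, 1.35 and 3.19 FPKM on day 2 (log2 change -3.78 ± 0.75, adjusted p = 0.000776). LIMS2 stood at 19.9, 20.6 and 21.2 FPKM on day 0 and 0.15, 0.41 and 2.48 FPKM on day 2 (log2 change -3.60 ± 0.28, adjusted p = 2.77e-08). In both genes every day 2 library lay below day 0, and replicate 3 retained more transcript than replicates 1 and 2. With the spread of the 6 libraries alone, 5 of the 12 largest rises (CXCL14, COMP, LIF, IL6 and PTGS2) and 7 of the 12 largest falls (CCN2, RHCG, LIMS2, COL11A1, POSTN, CRYAB and GPNMB) were called. The limma adjusted p of the other rises was 0.0109 to 0.0303 and that of the other falls 0.0108 to 0.0321.

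Genes were then grouped by function. The percentage called over all tested genes, 6.59%, is the background for the counts of the groups in the fit over 24 libraries. It was 2.71% for genes higher and 3.87% for genes lower. Without BF-2d replicate 3 these were 10.0, 3.89 and 6.12%, and with the spread of the 6 libraries alone 1.47, 0.558 and 0.911%. With a pseudocount of 0.1, 695 genes were called higher and 1325 lower, against 438 and 625. Some genes stand in more than 1 group (ID3, DUSP1 and WWTR1 among them).

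**Figure D2:**
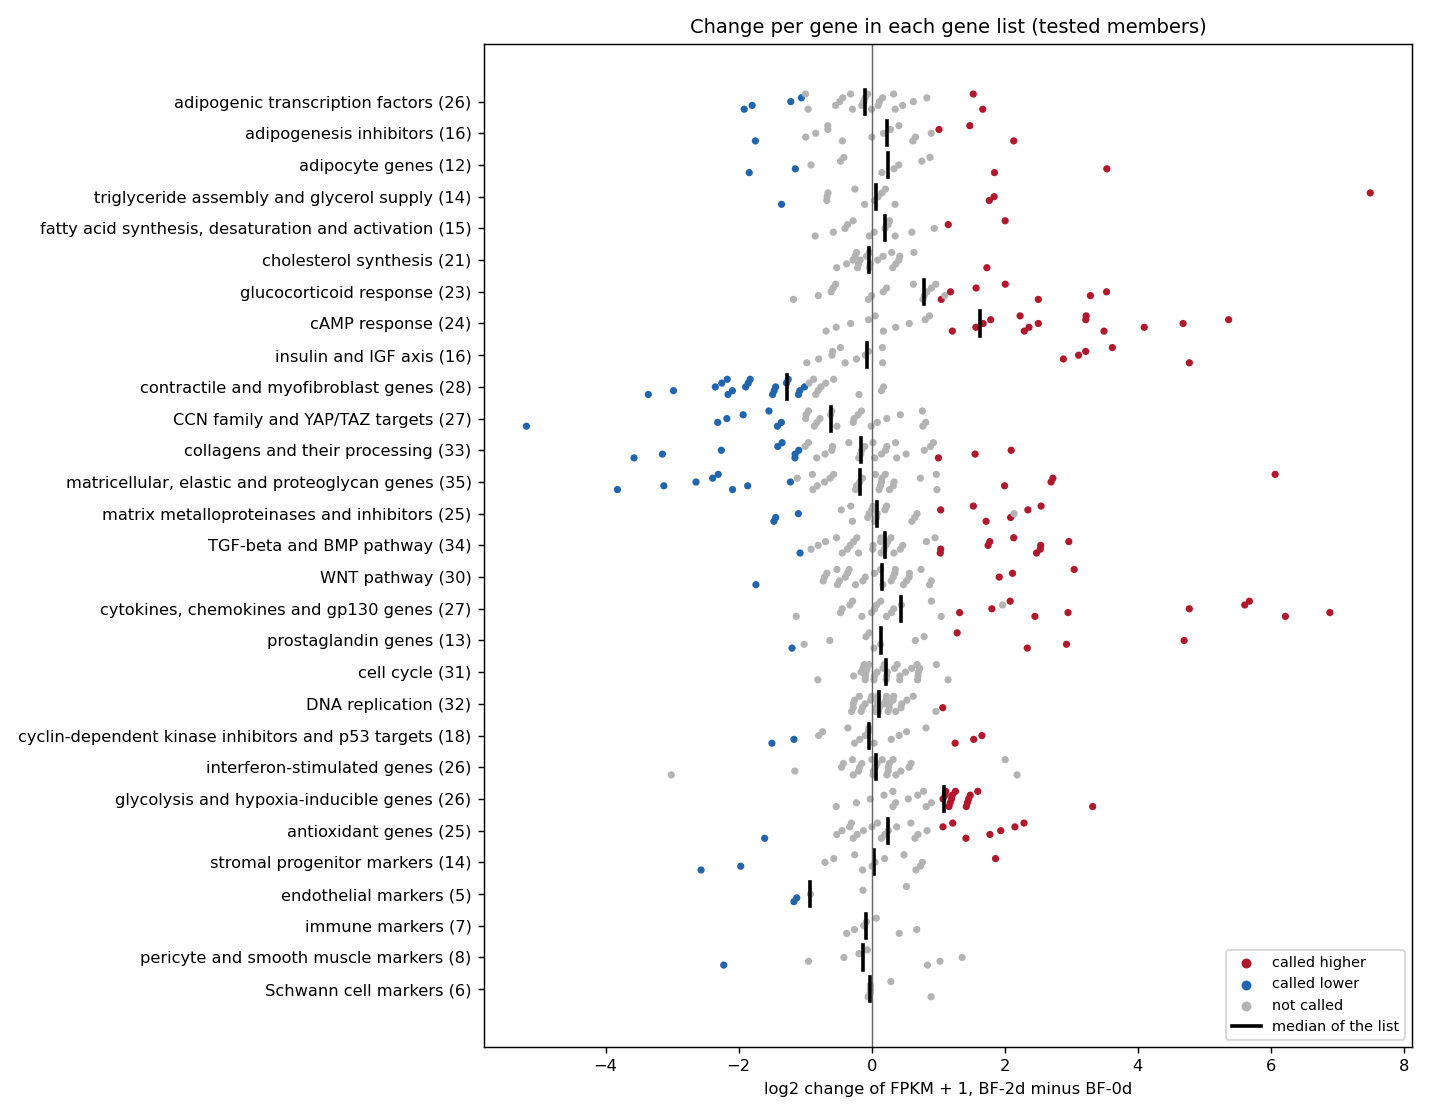
Log2 change of FPKM + 1 (horizontal axis, BF-2d minus BF-0d) of every tested member of 29 gene lists, the number of members in parentheses, with genes called higher in red, genes called lower in blue, genes not called in grey and the median of each list as a black bar. The cAMP-response and glycolytic medians lie at 1.62 and 1.09, the contractile median at -1.27 and the cell cycle median at 0.22.

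Among 26 adipogenic transcription factors, 2 were called higher and 4 lower, with a median change of -0.11 against -0.04 over all genes. CEBPA, which codes for C/EBPα, was measured at 1.93, 2.61 and 2.24 FPKM on day 0 and 9.71, 8.37 and 10.0 FPKM on day 2 (log2 change 1.67 ± 0.23, adjusted p = 2.31e-05). Every day 2 library lay above the day 0 libraries, and replicate 3 was the highest. CEBPB stood at 10.3, 13 and 15.2 FPKM on day 0 and 40.0, 51.2 and 27.8 FPKM on day 2 (log2 change 1.53 ± 0.25, adjusted p = 9.82e-05). CEBPD stood at 36.8, 44.6 and 47.2 FPKM on day 0 and 49.2, 67.9 and 87.3 FPKM on day 2 and was not called (log2 change 0.63 ± 0.28, adjusted p = 0.0908). Its day 2 libraries lay above the day 0 range, with replicate 3 the highest.

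PPARG, the nuclear receptor required for fat cell formation, was measured at 3.11, 2.57 and 3.33 FPKM on day 0 and 1.27, 1.27 and 5.75 FPKM on day 2. The day 2 libraries lay on both sides of the day 0 range, replicates 1 and 2 below it and replicate 3 above it, and the gene was not called (log2 change -0.29 ± 0.29, adjusted p = 0.501). Without replicate 3 its log2 change was -0.81 (adjusted p = 0.00357), short of the fold threshold. The factors called lower were KLF6, KLF4, CEBPG and ZNF423. KLF6, a Krüppel-like factor, stood at 16, 18 and 19.7 FPKM on day 0 and 3.73, 2.51 and 6.45 FPKM on day 2 (log2 change -1.92 ± 0.21, adjusted p = 1.16e-06). KLF4, an early activator of CEBPB, stood at 75.7, 77.9 and 80.2 FPKM on day 0 and 16.9, 13 and 45.6 FPKM on day 2 (log2 change -1.80 ± 0.33, adjusted p = 0.00038). Neither overlapped between days. ZBTB16 was at or below 0.178 FPKM in every library. Of the list, 3 were called higher and 4 lower without BF-2d replicate 3, and 1 and 1 with the spread of the 6 libraries alone. Adipogenic factors called lower numbered 2 without BF-2d replicate 2.

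Known inhibitors of adipogenesis moved both ways. Of 16 tested, 3 were called higher and 1 lower (median 0.23). ID3, an inhibitor of basic helix-loop-helix factors, was measured at 225, 238 and 268 FPKM on day 0 and 1149, 1362 and 785 FPKM on day 2 (log2 change 2.14 ± 0.22, adjusted p = 7.09e-07). GATA2, a zinc finger factor of preadipocytes, stood at 4.78, 5.32 and 5.77 FPKM on day 0 and 26.4, 23.6 and 6.88 FPKM on day 2 (log2 change 1.48 ± 0.36, adjusted p = 0.00366). Replicate 3 carried 71.6% of the log2 change of ID3 seen in the other day 2 libraries and 16% of that of GATA2. The gene called lower was DDIT3, the stress-induced C/EBP homologue CHOP (log2 change -1.75 ± 0.49, adjusted p = 0.00956). GATA2 missed the thresholds without BF-0d replicates 1, 2 and 3 and BF-2d replicates 1 and 2, each left out alone (log2 changes 1.15 to 1.53). DDIT3 missed the thresholds without BF-0d replicates 1, 2 and 3 and BF-2d replicates 1 and 2, each left out alone (log2 changes -1.83 to -1.32), and also with no filter on low values and with median ratio scaling. Of the list, 3 were called higher and 3 lower without BF-2d replicate 3, and 1 and 0 with the spread of the 6 libraries alone. Inhibitors called higher numbered 1 without BF-0d replicate 1, without BF-2d replicate 1 and without BF-2d replicate 2, and those called lower 0 with no filter on low values, with median ratio scaling, without BF-0d replicate 2, without BF-0d replicate 3 and without BF-2d replicate 2, 2 with the 5 libraries left without BF-2d replicate 3 fitted alone, and 3 with a pseudocount of 0.1.

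ADIPOQ, LEP and PLIN1, genes of the mature fat cell, were near 0 at both days. The tested adipocyte genes summed to 81.5 to 94.6 FPKM in the day 0 libraries and to 228, 243 and 105 FPKM in BF-2d replicates 1 to 3. ADIPOQ, LEP and PLIN1 reached at most 0.0735 FPKM in any of the 6 libraries and were too low to test. The labels call the samples adipocytes, but ADIPOQ, LEP and PLIN1 were near or at 0 on both days. LPL and FABP4, also chosen as adipocyte markers, were tested and are given below. Of 12 adipocyte genes tested, 2 were called higher and 2 lower (median 0.24). LPL, the lipoprotein lipase, was measured at 1.58, 2.76 and 2.33 FPKM on day 0 and 82.1, 77.7 and 6.71 FPKM on day 2 (log2 change 3.54 ± 0.58, adjusted p = 0.000138). PLIN2, the coat protein of small lipid droplets in many cell types, stood at 18.1, 19.1 and 18.5 FPKM on day 0 and 88.9, 86.7 and 43.2 FPKM on day 2 (log2 change 1.85 ± 0.23, adjusted p = 7.27e-06). Both rose most in replicates 1 and 2. FABP4, the fatty acid-binding protein of fat cells, was measured at 1.91, 1.75 and 2.41 FPKM on day 0 and 0.128, 0.574 and 0.411 FPKM on day 2 (log2 change -1.15 ± 0.24, adjusted p = 0.00101). APOE, a lipoprotein, stood at 22.6, 25 and 29.3 FPKM on day 0 and 4.98, 7.12 and 7.29 FPKM on day 2 (log2 change -1.84 ± 0.22, adjusted p = 4.07e-06). In these 2 genes all day 2 libraries lay together below the day 0 range. Of the list, 2 were called higher and 2 lower without BF-2d replicate 3, and 0 and 2 with the spread of the 6 libraries alone. Adipocyte genes called lower numbered 4 with a pseudocount of 0.1.

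For triglyceride assembly and glycerol supply, 3 of 14 genes were called higher (PCK1, GPD2 and GK) and 1 lower, the monoacylglycerol lipase MGLL. GK, glycerol kinase, was measured at 2.68, 2.63 and 3.29 FPKM on day 0 and 23.9, 12.1 and 5.96 FPKM on day 2 (log2 change 1.77 ± 0.40, adjusted p = 0.00227). GPD2, the mitochondrial glycerol-phosphate dehydrogenase, stood at 5.76, 5.91 and 5.92 FPKM on day 0 and 43.5, 21.2 and 14.1 FPKM on day 2 (log2 change 1.84 ± 0.27, adjusted p = 3.92e-05). Replicate 3 had the lowest day 2 value in both. GK missed the thresholds without BF-0d replicate 2 and BF-2d replicates 1 and 2, each left out alone (log2 changes 1.31 to 1.77). Of this list, 3 were called higher and 1 lower without BF-2d replicate 3, and 0 and 0 with the spread of the 6 libraries alone.

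For fatty acid synthesis, desaturation and activation, 2 of 15 genes were called higher and 0 lower. FASN, the fatty acid synthase, was measured at 40.5, 40.7 and 40.9 FPKM on day 0 and 101, 81.8 and 93 FPKM on day 2 (log2 change 1.15 ± 0.12, adjusted p = 9.6e-07). All 3 day 2 libraries lay together, and FASN was also called with the spread of the 6 libraries alone (adjusted p = 0.00605). ACSL4, which activates long-chain fatty acids, stood at 22, 21.6 and 20.2 FPKM on day 0 and 131, 83.7 and 63.2 FPKM on day 2 (log2 change 2.01 ± 0.29, adjusted p = 3.13e-05). SCD, the stearoyl-CoA desaturase, was measured at 38.6, 39.4 and 36.8 FPKM on day 0 and 40.3, 34.3 and 37.3 FPKM on day 2 and was not called. Of 21 genes of cholesterol synthesis, 1 was called, HSD17B7 at 7.04, 7.34 and 8.14 FPKM on day 0 and 28.3, 36.7 and 19.3 FPKM on day 2 (log2 change 1.73 ± 0.18, adjusted p = 7.84e-07). SOAT1, which esterifies cholesterol, stood at 4.2, 4.33 and 4.24 FPKM on day 0 and 46.4, 29.6 and 8.29 FPKM on day 2 (log2 change 2.18 ± 0.36, adjusted p = 0.000117). Of the fatty acid list, 2 were called higher and 1 lower without BF-2d replicate 3, and 2 and 0 with the spread of the 6 libraries alone. Fatty acid genes called lower numbered 1 with the 5 libraries left without BF-2d replicate 3 fitted alone. The call of HSD17B7 held in both of those fits.

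Genes that respond to glucocorticoids were called higher in 7 of 23 cases and lower in 0 (median change 0.79). ANGPTL4, a secreted inhibitor of lipoprotein lipase, was measured at 3.75, 3.46 and 3.43 FPKM on day 0 and 55.5, 73.4 and 33.6 FPKM on day 2 (log2 change 3.53 ± 0.27, adjusted p = 2.09e-08). DDIT4, an inhibitor of mTORC1, stood at 46.5, 48.3 and 51 FPKM on day 0 and 642, 695 and 254 FPKM on day 2 (log2 change 3.29 ± 0.26, adjusted p = 3.49e-08). Day 2 was higher in every library for both, with replicate 3 nearest to day 0. PER1, a clock gene with a glucocorticoid-responsive promoter, was measured at 4.64, 5.12 and 5.63 FPKM on day 0 and 13, 10.9 and 9.21 FPKM on day 2 and missed the fold threshold (log2 change 0.96 ± 0.15, adjusted p = 9.64e-05). It passed without BF-2d replicate 3 (log2 change 1.08, adjusted p = 3.83e-05), without BF-0d replicate 3, and with a pseudocount of 0.1, median ratio scaling, quantile normalization and array weights. FKBP5, the receptor co-chaperone often used as a glucocorticoid readout, stood at 14.7, 12.7 and 15.1 FPKM on day 0 and 8.78, 5.81 and 13.6 FPKM on day 2 and was not called (log2 change -0.61 ± 0.27, adjusted p = 0.0914). The FKBP5 values of day 2 overlapped the day 0 range only in replicate 3. TXNIP, an inhibitor of thioredoxin, was measured at 11.9, 12.3 and 15.1 FPKM on day 0 and 27.7, 19.2 and 55.2 FPKM on day 2 (log2 change 1.19 ± 0.33, adjusted p = 0.00961). TXNIP missed the thresholds without BF-0d replicates 1, 2 and 3 and BF-2d replicates 1 and 3, each left out alone (log2 changes 0.78 to 1.28), and also with no filter on low values, with the replicate block and with the 5 libraries left without BF-2d replicate 3 fitted alone. Of the list, 9 were called higher and 0 lower without BF-2d replicate 3, and 5 and 0 with the spread of the 6 libraries alone, and the change in replicate 3 was 59.3% of that in the other day 2 libraries in the median gene called without it. Glucocorticoid-response genes called higher numbered 11 with the 5 libraries left without BF-2d replicate 3 fitted alone, and those called lower 1 with a pseudocount of 0.1 and with the 5 libraries left without BF-2d replicate 3 fitted alone.

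The cAMP-response genes had the highest median change of all lists (1.62), with 14 of 24 called higher and 0 lower. RGS2, a regulator that shortens G-protein signalling, was measured at 0.457, 0.621 and 0.331 FPKM on day 0 and 129, 129 and 12.1 FPKM on day 2 (log2 change 5.37 ± 0.62, adjusted p = 3.8e-06). AREG, the EGF-receptor ligand amphiregulin, stood at 2.01, 1.57 and 1.78 FPKM on day 0 and 128, 147 and 18.2 FPKM on day 2 (log2 change 4.68 ± 0.48, adjusted p = 7.31e-07). SIK1, a kinase that restrains CREB coactivators, stood at 0.878, 1.19 and 1.5 FPKM on day 0 and 72.8, 68.1 and 9.17 FPKM on day 2 (log2 change 4.10 ± 0.54, adjusted p = 1.55e-05). In these genes replicate 3 lay roughly midway on the log scale, at 48.9, 49.4 and 44.2% of the change of the other day 2 libraries.

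The 3 NR4A orphan receptors, immediate targets of CREB, were all called higher. NR4A1 stood at 7.72, 7.99 and 9.03 FPKM on day 0 and 67.2, 69.7 and 15.9 FPKM on day 2 (log2 change 2.23 ± 0.47, adjusted p = 0.00119), and the log2 changes of NR4A2 and NR4A3 were 3.23 ± 0.45 and 3.22 ± 0.58. NR4A1 missed the thresholds without BF-2d replicate 2 (log2 change 1.88). Phosphodiesterase genes, whose products degrade cAMP and are the target of IBMX, were also among the genes called higher, namely PDE4B, PDE4D, PDE7B and PDE3B. PDE4B was measured at 4.46, 2.48 and 2.93 FPKM on day 0 and 63, 40.2 and 39.5 FPKM on day 2 (log2 change 3.49 ± 0.34, adjusted p = 4.24e-07). Its day 2 values agreed across the 3 libraries, and replicate 3 carried 90.5% of the change. Of the list, 15 were called higher and 0 lower without BF-2d replicate 3, and 3 and 0 with the spread of the 6 libraries alone.

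The insulin and insulin-like growth factor (IGF) axis held 5 genes called higher and 0 called lower of 16 tested, while its median change was -0.07. IGF1 was measured at 16.4, 13.3 and 14.2 FPKM on day 0 and 230.3, 119 and 109 FPKM on day 2 (log2 change 3.22 ± 0.43, adjusted p = 1.33e-05). The binding proteins IGFBP5, IGFBP2 and IGFBP4, which hold IGFs in the extracellular fluid, were called higher. IGFBP2 stood at 146, 162 and 200.5 FPKM on day 0 and 1908, 3179 and 510.1 FPKM on day 2 (log2 change 3.11 ± 0.43, adjusted p = 1.88e-05). IGFBP5 stood at 29.4, 33.3 and 28.2 FPKM on day 0 and 889, 716 and 87.6 FPKM on day 2 (log2 change 3.62 ± 0.50, adjusted p = 2.31e-05). STC1, a stanniocalcin that blocks the IGFBP protease PAPP-A, was measured at 0.053, 0.0192 and 0.0191 FPKM on day 0 and 84.2, 62.2 and 3.19 FPKM on day 2 (log2 change 4.78 ± 0.70, adjusted p = 4.3e-05). Day 2 exceeded day 0 in every library for these genes, and replicate 3 was the lowest of the day 2 libraries. IRS2, the insulin receptor substrate, stood at 3.18, 3.45 and 3.54 FPKM on day 0 and 2.46, 1.52 and 2.63 FPKM on day 2 and was not called (log2 change -0.47 ± 0.18, adjusted p = 0.0533). Of the list, 5 were called higher and 2 lower without BF-2d replicate 3, and 1 and 0 with the spread of the 6 libraries alone. Insulin and IGF genes called lower numbered 1 with a pseudocount of 0.1, with array weights, without BF-0d replicate 1 and without BF-2d replicate 2.

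Cytokine, chemokine and gp130 genes were called higher in 10 of 27 cases and lower in 0 (median 0.45). CXCL14 was measured at 2.92, 3.6 and 4.87 FPKM on day 0 and 688, 848 and 74.5 FPKM on day 2 (log2 change 6.22 ± 0.60, adjusted p = 4.38e-07). LIF, a ligand that signals through gp130, stood at 1.47, 1.58 and 1.92 FPKM on day 0 and 235, 295 and 35 FPKM on day 2 (log2 change 5.68 ± 0.62, adjusted p = 1.89e-06). IL6, another ligand of gp130, was measured at 3.91, 3.13 and 5.13 FPKM on day 0 and 381, 472 and 79.3 FPKM on day 2 (log2 change 5.61 ± 0.54, adjusted p = 4.43e-07). In these cytokine genes no day 2 library overlapped day 0, and replicate 3 was lowest on day 2. SOCS3, the feedback inhibitor that gp130 signalling induces, was measured at 6.87, 6.63 and 7.77 FPKM on day 0 and 29.4, 30.3 and 22.7 FPKM on day 2 (log2 change 1.81 ± 0.18, adjusted p = 3.52e-07). CXCL2 stood at 49.9, 42.3 and 40.8 FPKM on day 0 and 321, 502 and 263 FPKM on day 2 (log2 change 2.95 ± 0.61, adjusted p = 0.00105). All day 2 libraries were high for these, with replicate 3 at 80.4% and 80.6% of the change of the others. CSF1, the macrophage growth factor, was measured at 37, 42.7 and 39.9 FPKM on day 0 and 10.8, 11.4 and 42.8 FPKM on day 2, so that replicate 3 lay with the day 0 libraries and the gene was called lower without it (log2 change -1.76, adjusted p = 6.85e-06), with quantile normalization and with array weights, but not in the fit over all libraries. Of the list, 11 were called higher and 1 lower without BF-2d replicate 3, and 6 and 0 with the spread of the 6 libraries alone. Cytokine genes called lower numbered 1 with quantile normalization, with array weights and with the 5 libraries left without BF-2d replicate 3 fitted alone.

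Of 13 genes of prostaglandin synthesis, transport and breakdown, 4 were called higher and 1 lower (median 0.13, and -0.07 without BF-2d replicate 3). PLA2G4A, the phospholipase that frees arachidonic acid, stood at 7.96, 7.43 and 8.88 FPKM on day 0 and 128, 95.2 and 25.6 FPKM on day 2 (log2 change 2.93 ± 0.37, adjusted p = 6.81e-06). PTGS2 was measured at 2.7, 5.05 and 6.87 FPKM on day 0 and 417, 119 and 60.6 FPKM on day 2 (log2 change 4.70 ± 0.65, adjusted p = 2.37e-05), with a wide spread among the day 2 libraries and no overlap with day 0. PTGES, the synthase of prostaglandin E2, stood at 49.6, 48.6 and 51.4 FPKM on day 0 and 265, 438 and 145 FPKM on day 2 (log2 change 2.34 ± 0.35, adjusted p = 4.03e-05), and PTGS1 was the other gene called higher. PTGR1, a prostaglandin reductase, was called lower (log2 change -1.20 ± 0.25, adjusted p = 0.000899). PTGR1 missed the thresholds without BF-2d replicate 1 (log2 change -0.98). Of the list, 5 were called higher and 1 lower without BF-2d replicate 3, and 1 and 0 with the spread of the 6 libraries alone. Prostaglandin genes called lower numbered 0 without BF-2d replicate 1, and 2 with array weights and with the 5 libraries left without BF-2d replicate 3 fitted alone.

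Contractile and myofibroblast genes were called lower in 18 of 28 cases and higher in 0 (median -1.27). The list's summed FPKM was 9206 to 9702 in the day 0 libraries and 3329, 2789 and 6311 in BF-2d replicates 1 to 3. TAGLN, the actin-binding protein transgelin, was measured at 691, 727 and 741 FPKM on day 0 and 81.1, 127 and 396 FPKM on day 2 (log2 change -2.16 ± 0.47, adjusted p = 0.00143). MYL9, the regulatory light chain of smooth muscle myosin, stood at 138, 148 and 149.8 FPKM on day 0 and 22.7, 30.2 and 81.3 FPKM on day 2 (log2 change -1.90 ± 0.30, adjusted p = 7.37e-05). CNN1, calponin, stood at 19.6, 18.9 and 18.8 FPKM on day 0 and 1.42, 2.38 and 9.83 FPKM on day 2 (log2 change -2.17 ± 0.33, adjusted p = 5.26e-05). TAGLN missed the thresholds without BF-2d replicates 1 and 2, each left out alone (log2 changes -1.997 to -1.68). In all 3 genes replicates 1 and 2 had lost most of the transcript and replicate 3 had lost less, with 30.6, 34.2 and 31.8% of their log2 change. SRF, the serum response factor, was measured at 13.9, 15.8 and 14.8 FPKM on day 0 and 7.66, 5.57 and 11.115 FPKM on day 2 and missed the fold threshold (log2 change -0.84 ± 0.15, adjusted p = 0.000276), which it passed without replicate 3 (log2 change -1.07, adjusted p = 1.35e-06). ACTA2, ACTG2 and ACTG1 code for nearly identical proteins, and how reads shared between them were assigned is not given in the sources used here. Of the list, 0 were called higher and 21 lower without BF-2d replicate 3, and 0 and 0 with the spread of the 6 libraries alone. With those 6 libraries alone, 24 contractile genes had an unadjusted p under 0.05 by limma, against 32.6% of all tested genes. The change in replicate 3 was 33.4% of that in the other day 2 libraries in the median of the 21 contractile genes called without it.

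Among CCN genes and YAP/TAZ targets, 7 of 27 were called lower and 0 higher (median -0.62). CCN1, the matricellular protein CYR61, was measured at 226, 252 and 264 FPKM on day 0 and 41.8, 40.8 and 67.9 FPKM on day 2 (log2 change -2.32 ± 0.24, adjusted p = 9.82e-07). GADD45A, a stress-inducible growth arrest gene, stood at 53.7, 61.2 and 67.7 FPKM on day 0 and 10.8, 9.57 and 19.1 FPKM on day 2 (log2 change -2.18 ± 0.22, adjusted p = 6.34e-07). F3, tissue factor, stood at 27.7, 29.7 and 30.6 FPKM on day 0 and 4.71, 6.18 and 11.2 FPKM on day 2 (log2 change -1.93 ± 0.29, adjusted p = 4.34e-05). These genes and CCN2 were the 4 members also called with the spread of the 6 libraries alone. AXL, a receptor tyrosine kinase, AMOTL2, an angiomotin, and CCDC80 completed the calls. WWTR1, the gene of TAZ itself, was measured at 20.6, 23.5 and 23.1 FPKM on day 0 and 14, 7.52 and 11.7 FPKM on day 2 with a log2 change of -0.99 ± 0.17, just short of the fold threshold. It was called lower without replicate 3 (log2 change -1.05, adjusted p = 0.000182), without BF-0d replicate 1, without BF-2d replicate 1 and with a pseudocount of 0.1. Of the list, 1 was called higher and 12 lower without BF-2d replicate 3. CCN and YAP/TAZ genes called higher numbered 1 with the 5 libraries left without BF-2d replicate 3 fitted alone, and those called lower 12 with a pseudocount of 0.1.

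Of 33 collagen and collagen-processing genes, 3 were called higher and 8 lower (median -0.16). The genes called higher were chains of basement membrane collagens. COL4A1 was measured at 89.2, 101 and 110.0 FPKM on day 0 and 649, 646 and 190.3 FPKM on day 2 (log2 change 2.10 ± 0.28, adjusted p = 1.69e-05). COL4A2 stood at 105, 123 and 124 FPKM on day 0 and 522, 432 and 184 FPKM on day 2 (log2 change 1.56 ± 0.25, adjusted p = 0.000102), and COL18A1 lay just past the fold threshold (adjusted p = 0.00788). Chains called lower were COL1A1, COL5A2, COL8A2, COL11A1, COL14A1 and COL16A1, which are fibrillar chains except for COL8A2, COL14A1 and COL16A1. COL1A1, the major chain of type I collagen, was measured at 5341, 6049.9 and 5869 FPKM on day 0 and 2111, 1806 and 5072 FPKM on day 2 (log2 change -1.10 ± 0.27, adjusted p = 0.00359). COL11A1 stood at 29.1, 33 and 30.6 FPKM on day 0 and 2.15, 1.35 and 5.26 FPKM on day 2 (log2 change -3.15 ± 0.28, adjusted p = 1.06e-07). Replicate 3 kept COL1A1 near the day 0 level while its COL11A1 had fallen. COL1A1 missed the thresholds without BF-0d replicates 2 and 3 and BF-2d replicates 1 and 2, each left out alone (log2 changes -1.08 to -0.81), and also with median ratio scaling. COL18A1 missed the thresholds without BF-0d replicates 1, 2 and 3 and BF-2d replicates 1 and 2, each left out alone (log2 changes 0.79 to 1.09), and also with no filter on low values. The cross-linking enzymes LOX and LOXL4 were also called lower. LOX was measured at 154, 179.9 and 169.8 FPKM on day 0 and 40.7, 19.3 and 50.5 FPKM on day 2 (log2 change -2.26 ± 0.26, adjusted p = 2.45e-06), and LOXL4 stood at 54.4, 60.8 and 58.8 FPKM on day 0 and 1.68, 2.07 and 13.7 FPKM on day 2 (log2 change -3.58 ± 0.38, adjusted p = 1.05e-06). Of the list, 6 were called higher and 10 lower without BF-2d replicate 3, and 0 and 2 with the spread of the 6 libraries alone. Collagen genes called higher numbered 5 with the 5 libraries left without BF-2d replicate 3 fitted alone, and those called lower 5 without BF-2d replicate 2.

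Matricellular, elastic and proteoglycan genes were called higher in 4 and lower in 8 of 35 cases (median -0.18). COMP, the cartilage oligomeric matrix protein of the thrombospondin family, was measured at 3.29, 3.59 and 3.16 FPKM on day 0 and 427, 492 and 116 FPKM on day 2 (log2 change 6.07 ± 0.46, adjusted p = 2.09e-08). PRELP, a small leucine-rich proteoglycan, stood at 8.57, 8.61 and 7.92 FPKM on day 0 and 112, 60.9 and 33 FPKM on day 2 (log2 change 2.73 ± 0.36, adjusted p = 1.39e-05), and FBLN1 and TNC were the other genes called higher. TNC, tenascin C, was measured at 74.7, 79.4 and 75.1 FPKM on day 0 and 398, 290.1 and 253 FPKM on day 2 (log2 change 2.00 ± 0.13, adjusted p = 3.09e-09). None of the 4 genes overlapped between the days. Elastic fibre genes called lower were ELN, FBLN5, FBLN2, MFAP2 and MFAP5. ELN, elastin, was measured at 85.2, 94.4 and 100.3 FPKM on day 0 and 10.3, 10.9 and 41.6 FPKM on day 2 (log2 change -2.39 ± 0.36, adjusted p = 4.64e-05). POSTN stood at 161, 171 and 189.9 FPKM on day 0 and 17.6, 11.7 and 32.8 FPKM on day 2 (log2 change -3.13 ± 0.37, adjusted p = 3.85e-06). MGP stood at 123, 135 and 160.3 FPKM on day 0 and 2.46, 7.6 and 31.2 FPKM on day 2 (log2 change -3.82 ± 0.56, adjusted p = 4.2e-05). All 3 genes in replicate 3 lay between the day 0 libraries and replicates 1 and 2. Of the list, 5 were called higher and 11 lower without BF-2d replicate 3, and 3 and 3 with the spread of the 6 libraries alone.

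Among matrix metalloproteinases, related proteases and their inhibitors, 6 of 25 were called higher and 3 lower (median 0.08). ADAMTS1 was measured at 1.44, 1.78 and 1.52 FPKM on day 0 and 24.2, 18.8 and 5.84 FPKM on day 2 (log2 change 2.55 ± 0.32, adjusted p = 7.99e-06). ADAMTS4 stood at 2.7, 3.19 and 2.68 FPKM on day 0 and 21.3, 27 and 11.111 FPKM on day 2 (log2 change 2.35 ± 0.36, adjusted p = 6.25e-05). Both are proteoglycan-cleaving proteases, and ADAMTS5 and ADAMTS9 were called higher too. MMP2, gelatinase A, had the highest level of the genes of this list that were called, at 935, 1045 and 1066 FPKM on day 0 and 2623, 2526 and 1365 FPKM on day 2 (log2 change 1.04 ± 0.18, adjusted p = 0.000228). PLAU, the urokinase plasminogen activator, was called lower (log2 change -1.47 ± 0.25, adjusted p = 0.000172) while its receptor PLAUR was called higher (log2 change 1.53 ± 0.38, adjusted p = 0.00443). PLAUR missed the thresholds without BF-0d replicates 1, 2 and 3 and BF-2d replicates 1 and 2, each left out alone (log2 changes 1.11 to 1.58), and also with the replicate block. MMP2 missed the thresholds without BF-0d replicate 1 and BF-2d replicates 1 and 2, each left out alone (log2 changes 0.87 to 0.98), and also with quantile normalization. MMP1, interstitial collagenase, was measured at 1.31, 1.43 and 1.58 FPKM on day 0 and 17.9, 26.9 and 1.34 FPKM on day 2. Replicates 1 and 2 lay above the day 0 range and replicate 3 inside it, and the gene was called without replicate 3 (log2 change 3.24, adjusted p = 0.00414) and with array weights, but not in the fit over all libraries. Of the list, 7 were called higher and 3 lower without BF-2d replicate 3, and 1 and 0 with the spread of the 6 libraries alone.

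TGF-β and BMP pathway genes were called higher in 9 and lower in 1 of 34 cases (median 0.20). Among ligands and extracellular antagonists, BMP2, FST (follistatin) and GREM1 (gremlin) were higher and CHRD (chordin) lower. ID1, ID2 and ID3, transcriptional targets of BMP signalling, were all called higher. ID2 was measured at 25.2, 27.5 and 28.1 FPKM on day 0 and 211, 238 and 83.8 FPKM on day 2 (log2 change 2.54 ± 0.24, adjusted p = 2.35e-07). TGFBI, a TGF-β-induced matrix protein, stood at 3.5, 3.46 and 3.87 FPKM on day 0 and 59, 58.2 and 12.1 FPKM on day 2 (log2 change 2.96 ± 0.36, adjusted p = 5.01e-06). SMAD7, the inhibitory SMAD, stood at 5.61, 5.5 and 5.71 FPKM on day 0 and 16.1, 12.4 and 9.71 FPKM on day 2 (log2 change 1.03 ± 0.14, adjusted p = 1.48e-05). GREM1 stood at 10.7, 12.3 and 12.8 FPKM on day 0 and 48.5, 28.1 and 55.9 FPKM on day 2 (log2 change 1.75 ± 0.26, adjusted p = 4.03e-05), with its highest value in replicate 3. SMAD7 missed the thresholds without BF-2d replicate 1 (log2 change 0.86). CHRD missed the thresholds without BF-2d replicate 1 (log2 change -0.997), and also with median ratio scaling and with quantile normalization. Of the list, 10 were called higher and 2 lower without BF-2d replicate 3, and 1 and 0 with the spread of the 6 libraries alone. TGF-β and BMP genes called lower numbered 0 with median ratio scaling and with quantile normalization.

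Of 30 WNT pathway genes, 3 were called higher and 1 lower (median 0.15). SFRP1, a secreted WNT antagonist, was measured at 11.070, 10.4 and 11.8 FPKM on day 0 and 194, 147 and 33.3 FPKM on day 2 (log2 change 3.05 ± 0.43, adjusted p = 2.52e-05). WNT5A, a non-canonical ligand, stood at 1.06, 1.01 and 1.18 FPKM on day 0 and 15.2, 11.102 and 2.77 FPKM on day 2 (log2 change 2.12 ± 0.48, adjusted p = 0.00209). Both lay above day 0 in all day 2 libraries, least so in replicate 3. WNT5A missed the thresholds without BF-2d replicates 1 and 2, each left out alone (log2 changes 1.70 to 1.91). DKK2, a modulator of the LRP co-receptors, fell in replicates 1 and 2 and much less in replicate 3, with 7.82, 8.69 and 8.61 FPKM on day 0 and 0.771, 0.75 and 6.09 FPKM on day 2 (log2 change -1.74 ± 0.32, adjusted p = 0.000321). Of the list, 4 were called higher and 1 lower without BF-2d replicate 3, and 0 and 0 with the spread of the 6 libraries alone. WNT pathway genes called higher numbered 1 without BF-2d replicate 1, and 8 with a pseudocount of 0.1, and those called lower 5 with a pseudocount of 0.1.

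Genes of glycolysis and hypoxia-inducible genes were called higher in 14 of 26 cases and lower in 0 (median 1.09). The list summed to 2615 to 2765 FPKM in the day 0 libraries and to 7028, 9314 and 3992 FPKM in BF-2d replicates 1 to 3. SLC16A3, the lactate exporter MCT4, was measured at 3.08, 3.05 and 3.15 FPKM on day 0 and 62.6, 94.8 and 10.3 FPKM on day 2 (log2 change 3.32 ± 0.48, adjusted p = 3.22e-05). VEGFA, the vascular growth factor, stood at 31.9, 36.2 and 36.1 FPKM on day 0 and 171, 160.2 and 44.1 FPKM on day 2 (log2 change 1.596 ± 0.35, adjusted p = 0.00174). The enzymes called were HK2, PFKL, ALDOA, ALDOC, TPI1, GAPDH, PGK1, PGAM1, ENO1, PKM and LDHA, that is, members from the first step of the pathway to its end, with log2 changes of 1.07 to 1.48. ENO1, α-enolase, was measured at 459, 454 and 475 FPKM on day 0 and 1387, 1956 and 798 FPKM on day 2 (log2 change 1.48 ± 0.22, adjusted p = 3.53e-05). LDHA, lactate dehydrogenase A, stood at 261, 272 and 276 FPKM on day 0 and 691, 938 and 379 FPKM on day 2 (log2 change 1.21 ± 0.20, adjusted p = 0.000109). Replicate 3 rose least in each of these. VEGFA missed the thresholds without BF-2d replicates 1 and 2, each left out alone (log2 changes 1.26 to 1.31). PFKL missed the thresholds without BF-2d replicates 1 and 2, each left out alone (log2 changes 0.80 to 0.96), and also with quantile normalization. LDHA missed the thresholds without BF-2d replicate 2 (log2 change 0.92), and also with quantile normalization. Processed copies of such genes lie elsewhere in mammalian genomes, and how reads shared with them were assigned is not given in the sources used here. ENO2, neuron-specific enolase, stood at 0.83, 0.699 and 1.05 FPKM on day 0 and 2.49, 4.33 and 0.733 FPKM on day 2 and was not called (log2 change 0.78 ± 0.33, adjusted p = 0.0777). EGLN3, an oxygen-sensing prolyl hydroxylase, stood at 3.17, 3.47 and 3.55 FPKM on day 0 and 8.88, 10.9 and 2.06 FPKM on day 2 (log2 change 0.69 ± 0.33, adjusted p = 0.12). For both, replicate 3 lay below the day 0 mean while replicates 1 and 2 lay above the day 0 range. Without replicate 3 both were called higher, ENO2 (log2 change 1.22, adjusted p = 0.00341) and EGLN3 (log2 change 1.302, adjusted p = 7.88e-05). Of the list, 17 were called higher and 0 lower without BF-2d replicate 3, and 1 and 0 with the spread of the 6 libraries alone, and the median member called without replicate 3 had 31% of its change in that library. Glycolytic and hypoxia-inducible genes called higher numbered 6 without BF-2d replicate 2, and 9 with quantile normalization.

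Antioxidant genes were called higher in 7 of 25 cases and lower in 1 (median 0.25). CAT, catalase, was measured at 32.1, 32 and 32.7 FPKM on day 0 and 186, 143 and 54.2 FPKM on day 2 (log2 change 1.78 ± 0.39, adjusted p = 0.00177). SOD3, the extracellular superoxide dismutase, stood at 33.9, 39.7 and 40.9 FPKM on day 0 and 250.1, 312 and 87.7 FPKM on day 2 (log2 change 2.29 ± 0.34, adjusted p = 4.93e-05). PRDX6, a peroxiredoxin, stood at 40.0, 42.3 and 48 FPKM on day 0 and 299, 337 and 74.7 FPKM on day 2 (log2 change 2.15 ± 0.34, adjusted p = 9.11e-05). Replicate 3 lay above day 0 for all 3 and below the other day 2 libraries. CAT missed the thresholds without BF-2d replicates 1 and 2, each left out alone (log2 changes 1.42 to 1.61). SLC7A11, the cystine importer, was called lower (log2 change -1.61 ± 0.31, adjusted p = 0.000494), though not with the 5 libraries left without BF-2d replicate 3 fitted alone. SOD2, the mitochondrial superoxide dismutase, was measured at 334, 313 and 288 FPKM on day 0 and 792, 624 and 771 FPKM on day 2 (log2 change 1.22 ± 0.32, adjusted p = 0.0063), and SOD2 missed the thresholds without BF-0d replicates 1, 2 and 3 and BF-2d replicates 1, 2 and 3, each left out alone (log2 changes 1.16 to 1.33), and also with no filter on low values and with quantile normalization. Of the list, 6 were called higher and 1 lower without BF-2d replicate 3, and 1 and 0 with the spread of the 6 libraries alone. Antioxidant genes called higher numbered 4 without BF-2d replicate 1 and without BF-2d replicate 2, and those called lower 0 with the 5 libraries left without BF-2d replicate 3 fitted alone.

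Proliferation genes were called in few cases, although more of them lay above than below day 0. In 13 of 31 cell cycle genes and 7 of 32 DNA replication genes every day 2 library lay above every day 0 library, and in 0 and 0 every one lay below, against 16.8% and 23.3% of all tested genes. Of 31 cell cycle genes, 0 were called in either direction by limma (median 0.22), 11 had an unadjusted p under 0.05 (41.2% of all tested genes), and 1 was called lower without replicate 3, CCND3 (log2 change -1.22, adjusted p = 5.08e-06). Cell cycle genes called higher numbered 1 with median ratio scaling, with quantile normalization, with array weights and with the 5 libraries left without BF-2d replicate 3 fitted alone, and those called lower 1 with the 5 libraries left without BF-2d replicate 3 fitted alone. CDK4, the kinase partner of D-type cyclins, stood at 49.5, 51.9 and 58.2 FPKM on day 0 and 38.3, 51.4 and 65.4 FPKM on day 2. CDK2, the partner of cyclins E and A, stood at 41.5, 45.2 and 44.8 FPKM on day 0 and 43.4, 29.9 and 45.9 FPKM on day 2. The days overlapped in both. TOP2A, topoisomerase IIα of dividing cells, was measured at 3.72, 4.26 and 4.02 FPKM on day 0 and 17.1, 7.1 and 8.28 FPKM on day 2. All day 2 libraries exceeded day 0, but the gene was not called (log2 change 1.15 ± 0.39, adjusted p = 0.028) except with array weights. Of 32 DNA replication genes, 1 was called higher, MCM7, a subunit of the replicative helicase, at 10.7, 11.104 and 13.7 FPKM on day 0 and 26.9, 24.8 and 25.7 FPKM on day 2 (log2 change 1.07 ± 0.10, adjusted p = 3.61e-07). Among cyclin-dependent kinase inhibitors and p53 targets, 3 of 18 were called higher and 2 lower. CDKN1C, the inhibitor p57, was measured at 1.55, 1.84 and 2.16 FPKM on day 0 and 10.7, 10.5 and 4.32 FPKM on day 2 (log2 change 1.66 ± 0.25, adjusted p = 6e-05). SESN1, a sestrin, stood at 4.94, 6.25 and 6.66 FPKM on day 0 and 26.5, 16.3 and 15.8 FPKM on day 2 (log2 change 1.53 ± 0.22, adjusted p = 3.4e-05). GADD45G stood at 11.3, 12.3 and 13 FPKM on day 0 and 3.45, 3.19 and 4.44 FPKM on day 2 (log2 change -1.50 ± 0.18, adjusted p = 4.77e-06). SESN2, another sestrin, was the other gene called lower (log2 change -1.17 ± 0.25, adjusted p = 0.00111). Of this list, 4 were called higher and 2 lower without BF-2d replicate 3, and 0 and 1 with the spread of the 6 libraries alone. Of the DNA replication list, 2 were called higher and 0 lower without BF-2d replicate 3, and 1 and 0 with the spread of the 6 libraries alone. DNA replication genes called higher numbered 2 with median ratio scaling, with quantile normalization, with array weights and with the 5 libraries left without BF-2d replicate 3 fitted alone, and 3 with a pseudocount of 0.1.

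AGT and CYP26B1, genes that the study singled out, stood outside these groups. AGT, angiotensinogen, was measured at 3.42, 3.33 and 2.99 FPKM on day 0 and 3.78, 3.56 and 2.31 FPKM on day 2. Its day 2 libraries overlapped day 0 and the gene was not called (log2 change -0.03 ± 0.21, adjusted p = 0.953). CYP26B1, which degrades retinoic acid, stood at 0.864, 1.11 and 1.23 FPKM on day 0 and 7.78, 5.38 and 2.88 FPKM on day 2 (log2 change 1.55 ± 0.23, adjusted p = 4.46e-05), with every day 2 library above day 0.

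Cell type markers were compared between the days. Of 14 stromal progenitor markers, 1 was called higher and 2 lower (median 0.03, and -0.05 without BF-2d replicate 3), with summed FPKM of 716 to 753 on day 0 and 1041, 707 and 949.8 on day 2. PDGFRA, a receptor that marks fat-forming stromal cells, was measured at 63.4, 84.9 and 82.7 FPKM on day 0 and 433, 182 and 279 FPKM on day 2 (log2 change 1.86 ± 0.24, adjusted p = 1.08e-05) and missed the thresholds with the 5 libraries left without BF-2d replicate 3 fitted alone. DPP4, a marker of early stromal progenitors, stood at 16, 16.6 and 18.1 FPKM on day 0 and 1.83, 1.46 and 2.96 FPKM on day 2 (log2 change -2.57 ± 0.16, adjusted p = 1.65e-09). PI16, which marks the same cells, stood at 19.4, 22.4 and 21.3 FPKM on day 0 and 2.67, 3.2 and 10.4 FPKM on day 2 (log2 change -1.97 ± 0.27, adjusted p = 1.72e-05). DPP4 was low in all 3 day 2 libraries, whereas PI16 in replicate 3 lay between day 0 and the other day 2 libraries. Of the list, 1 was called higher and 2 lower without BF-2d replicate 3, and 0 and 1 with the spread of the 6 libraries alone. Stromal markers called higher numbered 0 with the 5 libraries left without BF-2d replicate 3 fitted alone, and 2 without BF-0d replicate 1.

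Markers of other cell types were called in 3 genes. The myogenic genes PAX7, MYF5 and MYOD1 were listed at 0 in all 6 libraries, as were PTPRC, the pan-leukocyte marker, KDR, the endothelial VEGF receptor, and CDH1 of epithelium. Of 5 endothelial markers tested, 2 were called lower, PECAM1 (log2 change -1.13 ± 0.16, adjusted p = 2.56e-05) and ERG (log2 change -1.17 ± 0.30, adjusted p = 0.00512). Their list summed to 25.6 to 26.3 FPKM on day 0 and to 15.1, 13 and 18.2 FPKM on day 2, and CDH5 was at most 0.0884 FPKM. ERG missed the thresholds without BF-0d replicates 1, 2 and 3 and BF-2d replicates 1 and 2, each left out alone (log2 changes -1.20 to -0.90), and also with no filter on low values. PECAM1 missed the thresholds without BF-2d replicate 2 (log2 change -0.99), and also with quantile normalization. Of 7 immune markers, 0 were called by limma (2 with an unadjusted p under 0.05, against 41.2% of all tested genes), although CD79A, a B-cell receptor subunit, stood at 47.9, 58.6 and 70.7 FPKM on day 0 and 85.6, 129.9 and 74.3 FPKM on day 2 while MS4A1, another B-cell marker, was listed at 0. Of 8 pericyte and smooth muscle markers, 1 was called lower, CSPG4 at 13.2, 15 and 12.7 FPKM on day 0 and 0.82, 0.854 and 8 FPKM on day 2 (log2 change -2.23 ± 0.38, adjusted p = 0.000168), and the list summed to 30.1 to 34.3 FPKM on day 0 and 31.3, 30.0 and 28.9 FPKM on day 2. Without BF-2d replicate 3, 3 endothelial markers were called lower, and 2 pericyte markers were called higher and 2 lower. Endothelial markers called lower numbered 0 without BF-2d replicate 2, and 1 with no filter on low values, with quantile normalization, without BF-0d replicate 2, without BF-0d replicate 3 and without BF-2d replicate 1. Pericyte markers called higher numbered 1 with the replicate block, and 2 with a pseudocount of 0.1, with array weights and with the 5 libraries left without BF-2d replicate 3 fitted alone, and those called lower 2 with a pseudocount of 0.1, without BF-0d replicate 1 and without BF-2d replicate 1. CSPG4, PECAM1 and ERG were called lower, as were contractile genes, but differed in replicate 3. There they had 23.3, 87.0 and 47.5% of the change of the other day 2 libraries. The median was 33.4% in contractile genes called without replicate 3. Any part of these cell types in the fall of contractile genes was not tested. Of 6 Schwann cell, 2 epithelial and 1 myogenic markers that reached the test, 0 were called by limma (1, 0 and 0 with an unadjusted p under 0.05, against the same 41.2%). Without replicate 3, 0 immune, 0 epithelial and 0 myogenic markers were called in either direction. ERBB3, a neuregulin receptor of Schwann and epithelial cells, stood at 36.1, 41.2 and 48.3 FPKM on day 0 and 68, 111 and 62.8 FPKM on day 2 (log2 change 0.89 ± 0.19, adjusted p = 0.00149), and was called higher without replicate 3 (log2 change 1.05, adjusted p = 0.000466).

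BF-2d replicate 3 was then placed gene by gene between the groups. Of the 1615 genes called without it, 1534 moved in the same direction in it, and in 1487 it lay outside the day 0 range toward day 2. The median gene had 44% of the log2 change of replicates 1 and 2 (quartiles 27.7 and 61.5%), 40.5% among genes that rose and 45.6% among genes that fell. At least 80% of the change was present in 142 genes and under 20% in 263. Over the 27 lists with at least 1 such gene, the median percentage of a list ran from 85.2 to -0.513, with n the number of its genes called without replicate 3. In lists with 5 or more such genes it was 59.3 (glucocorticoid response, n = 9), 55.3 (matricellular genes, n = 16), 53.4 (cytokine genes, n = 12), 53 (TGF-β and BMP pathway, n = 12), 49.2 (prostaglandin genes, n = 6), 47.6 (cyclin-dependent kinase inhibitors and p53 targets, n = 6), 46.5 (metalloproteinases, n = 10) and 46.1 (cAMP response, n = 15) in the upper part of the order. The lower part held 41.6 (CCN and YAP/TAZ genes, n = 13), 41.6 (antioxidant genes, n = 7), 41.3 (insulin and IGF axis, n = 7), 39 (adipogenesis inhibitors, n = 6), 37.5 (collagens, n = 16), 35.7 (adipogenic transcription factors, n = 7), 33.4 (contractile genes, n = 21), 31 (glycolytic and hypoxia-inducible genes, n = 17) and 26.6 (WNT pathway, n = 5). In lists with fewer, it was 85.2 (DNA replication, n = 2), 78.8 (stromal markers, n = 3), 75.8 (endothelial markers, n = 3), 70.4 (adipocyte genes, n = 4), 68 (fatty acid genes, n = 3), 64 (cholesterol synthesis, n = 1), 55.8 (Schwann cell markers, n = 1), 45.4 (triglyceride genes, n = 4), 22.4 (pericyte markers, n = 4) and -0.513 (cell cycle, n = 1). These percentages come from 1 library and carry no test. The genes were called on BF-2d replicates 1 and 2, so that a smaller change in replicate 3 follows in part from that choice. The same percentage was not computed for replicate 1 or replicate 2 left out.

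**Figure D3:**
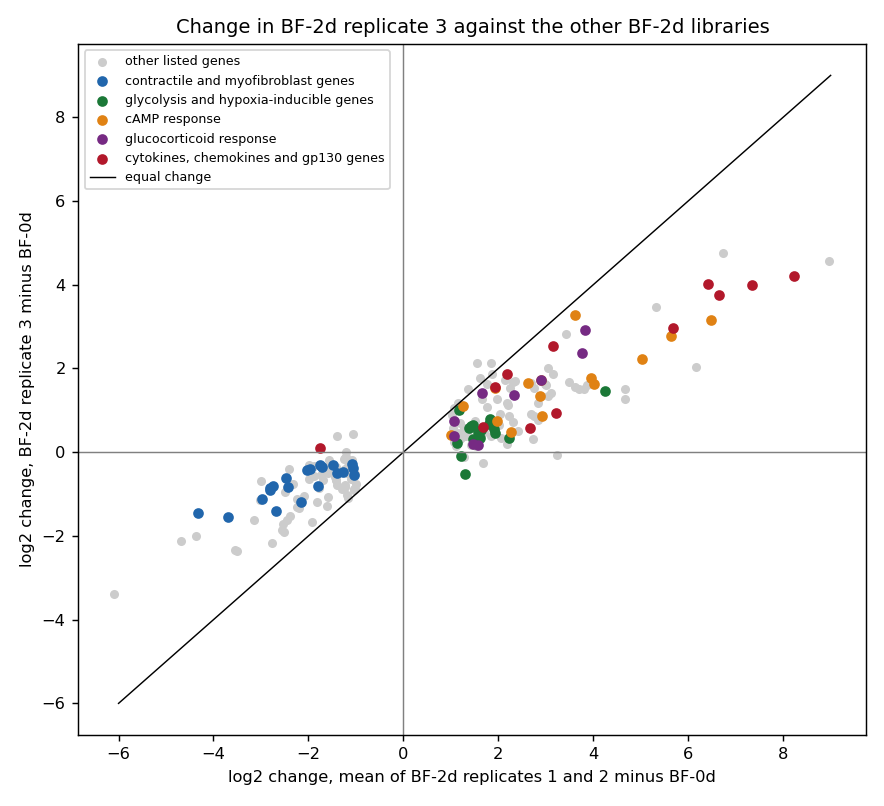
Log2 change from the day 0 mean in BF-2d replicate 3 (vertical axis) against the mean of BF-2d replicates 1 and 2 (horizontal axis) for the 207 listed genes called without replicate 3, 5 gene lists in colour and the line of equal change in black. Of these genes, 193 lie between no change and equal change, 9 changed in the opposite direction and 5 lie at or past equal change. The genes were called on replicates 1 and 2, so that a smaller change in replicate 3 follows in part from that choice.

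Individual genes marked the ends of this range. Those at which replicate 3 was nearest the day 0 mean were ARHGAP23, ATP1B1, CCND3, ARHGAP42, THSD4, MMP1, CORO2B and PRKAR2A. Of these, ATP1B1, THSD4 and CORO2B were also called in the fit over all libraries. ATP1B1 missed the thresholds without BF-0d replicates 1 and 2 and BF-2d replicates 1 and 2, each left out alone (log2 changes 1.22 to 1.68). THSD4 missed the thresholds without BF-0d replicates 1, 2 and 3 and BF-2d replicates 1 and 2, each left out alone (log2 changes -1.57 to -0.92). CORO2B missed the thresholds without BF-0d replicates 1, 2 and 3 and BF-2d replicates 1 and 2, each left out alone (log2 changes 0.87 to 1.28). ATP1B1, a subunit of the sodium pump, was measured at 7.09, 8.05 and 8.62 FPKM on day 0 and 51.9, 46.8 and 7.95 FPKM on day 2. THSD4, a microfibril-associated protein, stood at 8.58, 10.8 and 8.84 FPKM on day 0 and 1.94, 0.596 and 9.2 FPKM on day 2. Replicate 3 of either gene lay inside the day 0 range. Nearest to the other day 2 libraries were MCM7, PDGFRA, CAV2, GULP1, BCL6, MAP2K3, MARCHF3 and IER5L. BCL6, a transcriptional repressor, stood at 13.3, 13.7 and 12.4 FPKM on day 0 and 40.0, 28.6 and 33.7 FPKM on day 2 (log2 change 1.299 ± 0.15, adjusted p = 3.39e-06). CAV2, caveolin 2, stood at 23.9, 24.6 and 24.4 FPKM on day 0 and 12.7, 8.32 and 10.3 FPKM on day 2 (log2 change -1.16 ± 0.16, adjusted p = 1.96e-05). IER5L was measured at 9.84, 11.8 and 11.6 FPKM on day 0 and 44.7, 46.8 and 46.5 FPKM on day 2 (log2 change 1.96 ± 0.18, adjusted p = 1.76e-07). For these genes the 3 day 2 libraries formed a group apart from day 0.

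The change of BF cells was compared with that of IMF cells over the same 2 days, with which it shares no library. The difference between the depots in the change was called in 395 genes (2.45% of tested genes). It was called in 269 of the 1063 genes called in BF (25.3%), 126 that rose and 143 that fell. The difference contains the BF change itself, so genes chosen for that change show a called difference more often by construction, and nothing is read from the higher percentage. In IMF cells themselves 127 genes were called (0.787%), and the 72 genes called in both depots all moved in the same direction in both, 33 higher and 39 lower.

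PCK1 had the widest called gap between the depots among genes with a symbol. In IMF cells it was measured at 0, 0.0302 and 0 FPKM on day 0 and 0.162, 0.262 and 0 FPKM on day 2, and the change in IMF minus that in BF was -7.33 ± 1.10, adjusted p = 0.000547. CCN2 in IMF cells stood at 182, 143 and 159.8 FPKM on day 0 and 196, 105 and 196 FPKM on day 2, with a log2 change of -0.02 ± 0.51 and overlapping days, and the difference of changes was 5.18 ± 0.72, adjusted p = 0.000319. SLC16A3 in IMF cells stood at 14.7, 13.9 and 19.3 FPKM on day 0 and 3.7, 4.75 and 2.9 FPKM on day 2, with a log2 change of -1.83 ± 0.48 and a difference of -5.15 ± 0.67, adjusted p = 0.000161. Of the 26 glycolytic and hypoxia-inducible genes, the difference was called in 13, and the median change was 1.09 in BF and -0.52 in IMF. Of 35 matricellular genes it was called in 8, of 27 CCN and YAP/TAZ genes in 6, of 27 cytokine genes in 5, and of 28 contractile genes in 3. PDE4B, NR4A1 and IGF1 were called higher in both depots, with log2 changes in IMF of 2.56 ± 0.34, 2.39 ± 0.47 and 2.01 ± 0.43, and their difference between depots was not called (adjusted p = 0.202, 0.909 and 0.183). Without BF-2d replicate 3 the difference was called in 1182 genes, and leaving out 1 of 8 other libraries (all but BF-2d replicate 1 and replicate 2 of IMF-0d and IMF-2d) brought the number to between 193 and 248.

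**Figure D4:**
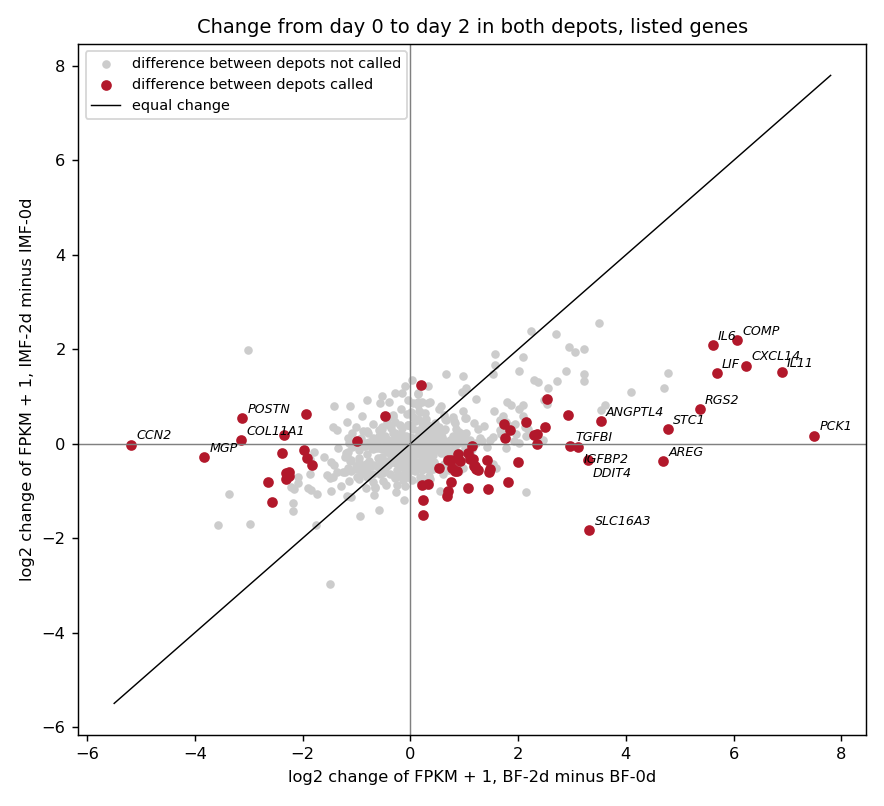
Log2 change of FPKM + 1 from day 0 to day 2 in IMF cells (vertical axis) against BF cells (horizontal axis) for 605 listed genes, with the 73 genes whose change differed between depots by limma in red and the line of equal change in black. PCK1, IL11, AREG and SLC16A3 lie at the right near or below an IMF change of 2, and CCN2, MGP and POSTN lie at the left near an IMF change of 0.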

How the data were processed

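RNA from 24 libraries, 8 groups of depot and day with 3 replicates each, was sequenced by the authors, who mapped the reads to Sscrofa11.1 with HISAT2 and computed FPKM with StringTie 1.3.4d (submitters' processing notes and study methods). The deposited table holds FPKM for 25462 genes. Read depth is not in these values, and how far it limits the precision of low values was not measured here.

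Here log2(FPKM + 1) of the 16135 genes whose FPKM summed to more than 1 over the 24 libraries was fitted with limma 3.58.1 (R 4.3.3; 8 group means, empirical Bayes with an intensity trend and robust settings, Benjamini-Hochberg adjustment). The authors' own test, DESeq2 1.6.3 on counts, was not used here. The script was tested on simulated data. The members and gene lists were chosen with earlier results of these data known. Genes were named as the 12 largest rises and falls with a symbol, a higher group of 1 FPKM or more and no overlap, called with and without BF-2d replicate 3; genes the study singled out and known genes of adipogenesis and hormone response; the 2 largest calls in each direction per list, or the 2 highest members of a list with no calls; and the 8 genes at either end of the position of replicate 3 with at least 5 FPKM. Of these, TSC22D3 and MKI67 had no match by symbol and were not analysed here, and 35 list members were added after their values were seen. Alternatives were a pseudocount of 0.1, no filter, a mean of at least 1 FPKM, median ratio and quantile scaling, array weights, a replicate block, only the compared libraries, and each replicate left out; the 5 libraries left without BF-2d replicate 3, fitted alone, were added after seeing the data.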

Additional observations from a re-analysis of the deposited data

Results flagged for a closer look

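The change from day 0 to day 2 differed between the depots in 49 of the 152 named genes by the limma contrast of the changes (an adjusted p under 0.01 and an absolute difference of at least 1). Values are the log2 change in IMF minus that in BF. Among genes whose BF change was upward, the differences were PCK1 -7.33, IL11 -5.38, CXCL14 -4.57, COMP -3.87, LIF -4.19, IL6 -3.53, RGS2 -4.63, STC1 -4.47, AREG -5.06, ID3 -1.67, PLIN2 -1.55, FASN -1.20, HSD17B7 -1.32, ANGPTL4 -3.05, DDIT4 -3.64, ADAMTS4 -2.36, TGFBI -3.02, ID2 -1.60, PLA2G4A -2.32, MCM7 -1.27, SLC16A3 -5.15, SOD3 -2.10, MAP2K3 -1.24, MARCHF3 -1.13, IER5L -1.52, ENO1 -2.02, GREM1 -1.64, IGFBP2 -3.18, LDHA -1.74, PFKL -2.01, PTGES -2.13, SOCS3 -2.62 and TNC -2.38. Among genes whose BF change was downward, they were CCN2 5.18, MGP 3.54, LIMS2 2.10, USP53 2.74, COL11A1 3.22, POSTN 3.67, SEMA3D 2.58, GPNMB 2.22, CCN1 1.57, KLF6 1.61, DPP4 1.32, PI16 1.84, ELN 2.20, F3 2.57, LOX 1.57 and WWTR1 1.06. Most named genes were chosen for the size of their BF change, so that a smaller change in IMF follows in part from that choice. Over all tested genes the change was higher in IMF in 199 and lower in 196 of the genes with a called difference.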

How the results depend on the processing

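From BF-0d to BF-2d, the 1063 genes called became 2020 with a pseudocount of 0.1 and 237 with the spread of the 6 libraries alone. Leaving out 1 library gave 698 to 1615 calls, the lowest without BF-2d replicate 2 and the highest without BF-2d replicate 3. The other alternatives gave 1007 (no filter on low values), 1075 (mean of at least 1 FPKM in a compared group), 1040 (median ratio scaling), 1022 (quantile normalization), 1201 (array weights) and 1306 (only the 5 libraries left without BF-2d replicate 3). No alternative reversed the direction of change of a named gene that was called. Reversal was not scored for gene lists. The cause of these differences was not tested. The share of calls that were higher was 41.2% as reported, 49.4% with median ratio scaling, 46.0% with quantile normalization, 34.4% with a pseudocount of 0.1, 35.5% without BF-2d replicate 1 and 35.8% without BF-0d replicate 1, and it lay between these bounds in every other alternative.

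The 395 genes with a different change in IMF and BF became 132 with the 12 libraries alone and 899 with array weights, whose estimation gave a convergence warning. Leaving out 1 library gave 193 to 1182 calls, the lowest without IMF-0d replicate 3 and the highest without BF-2d replicate 3. It gave 239, 215 and 247 without BF-0d replicates 1 to 3, 221 without BF-2d replicate 2, 248 without IMF-0d replicate 1, and 223 and 229 without IMF-2d replicates 1 and 3. The other alternatives gave 434 (pseudocount of 0.1), 281 (no filter on low values), 459 (mean of at least 1 FPKM in a compared group), 429 (median ratio scaling) and 445 (quantile normalization).

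Same-numbered BF-0d and BF-2d replicates did not deviate together (correlations of 0.00382, -0.164 and -0.0470), so the numbers were not taken to pair the samples. A replicate block gave 1052 calls in BF and 299 for the difference between depots. Of the 117 named genes that were called, 78 missed the thresholds with the 6 libraries alone. When a single BF library was left out 2 to 22 of them did so, and 2 with the block (PLAUR and TXNIP). Read depth is not part of the deposited values and was not used here, so how far it limits genes of low FPKM was not measured.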

Other observations

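Of 26 interferon-stimulated genes, 0 were called by limma (2 with an unadjusted p under 0.05, against 41.2% of all tested genes), with a median log2 change of 0.07. Without BF-2d replicate 3, 0 were called higher and 0 lower, and with the spread of the 6 libraries alone 0 and 1, the latter being DDX58. Interferon-stimulated genes called lower numbered 2 with the 5 libraries left without BF-2d replicate 3 fitted alone. The genes named here were chosen after their values were seen. ISG15, a ubiquitin-like protein induced by interferon, stood at 21.1, 6.98 and 9.59 FPKM on day 0 and 18.8, 164 and 36.3 FPKM on day 2 (log2 change 2.01 ± 0.96, adjusted p = 0.121). CXCL10, an interferon-induced chemokine, stood at 0.445, 0.37 and 0.186 FPKM on day 0 and 1.84, 29.8 and 1.53 FPKM on day 2 (log2 change 2.19 ± 1.03, adjusted p = 0.115). In both genes BF-2d replicate 2 was far above every other BF-0d and BF-2d library. ISG15 in IMF cells stood higher still, at 188 to 376 FPKM on day 0 and 202 to 299 FPKM on day 2. DDX58, the cytosolic RNA sensor RIG-I, was measured at 11.7, 7.89 and 11.3 FPKM on day 0 and 0.303, 0.464 and 0.38 FPKM on day 2 (log2 change -3.01 ± 1.45, adjusted p = 0.125). Its day 2 libraries all lay below day 0, and it was called lower by limma with the spread of the 6 libraries alone (adjusted p = 0.00382) but not in the fit over 24 libraries. The SE was 0.175 in the former fit and 1.45 in the latter. In IMF cells DDX58 stood at 3.73, 3.61 and 63.5 FPKM on day 0.

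CSPG4 was the pericyte marker called lower, while RGS5 and NDUFA4L2, other markers of pericytes, were called higher without BF-2d replicate 3. RGS5 stood at 0.0639, 0.0461 and 0.0344 FPKM on day 0 and 3.44, 2.18 and 0.38 FPKM on day 2 (log2 change 1.84 without replicate 3, called also with a pseudocount of 0.1, array weights and the replicate block), and NDUFA4L2 at 5.08, 5.62 and 5.04 FPKM on day 0 and 17, 21 and 4.22 FPKM on day 2 (log2 change 1.67 without replicate 3, called also with array weights).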
